A study of Mus musculus with 12 samples.

Results

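The granule docking and exocytosis machinery was followed as 43 genes, chosen by name from the deposited gene table: SNARE proteins, synaptotagmins and synaptotagmin-like proteins, complexins, Rab3, Rab27 and Rab37, active zone scaffolds, priming factors and their helpers. All 43 were found among the 55417 genes of the table, and all 43 passed the filter on low counts that left 17230 genes. The cells came from Gcg-Timer mouse pancreas, taken at E17.5, a line with a fluorescent Timer reporter of Gcg, the glucagon gene. Cells were sorted into B, which carry green and red signal and are labelled as the more differentiated alpha cells, A, in which green dominates and which are labelled as newly generated alpha cells, and N, the non-alpha cells. Each group has 4 libraries, numbered by replicate (B1 to B4, A1 to A4, N1 to N4), from different mother mice. All 12 libraries share the Gcg-Timer genotype, the groups rest on reporter colour alone, and the sources used here do not say whether animals were pooled.

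Secretory granules fuse with the plasma membrane when a SNARE on the granule zips up with SNAREs of the target membrane. Rab GTPases of the Rab3 and Rab27 families and their effectors first bring granules to the membrane, Unc13 and CAPS proteins prime them, and synaptotagmins couple fusion to calcium. Most of these proteins come in families of paralogues, of which neuroendocrine cells, exocrine cells and other cells are known to use different members.

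Total counts per library were 16216967 to 24259218 in B, 18168677 to 25873635 in A and 32114292 to 38545756 in N. The sort was checked with marker lists. Summed over 9 alpha cell markers, levels were 40770 to 58110 CPM (normalised read counts scaled to library size) in B, 17370 to 28110 CPM in A and 510 to 689 CPM in N. The 9 include Gcg, the gene of the sorting reporter. Of the 9, 4 rose and 0 fell in B against A, 8 rose and 1 fell in A against N, and 8 rose and 0 fell in B against N. N held acinar cell RNA (12 markers, 11430 to 28970 CPM in B, 19640 to 33970 CPM in A and 65650 to 123100 CPM in N), mesenchymal RNA (9 markers, 400 to 1364 CPM in B, 2524 to 10310 CPM in A and 11930 to 23530 CPM in N) and erythroid RNA (6 markers, 181 to 594 CPM in B, 225 to 1399 CPM in A and 56730 to 222900 CPM in N). Summed over 9 beta cell markers, levels were 4006 to 4666 CPM in B, 5187 to 19790 CPM in A and 3742 to 8411 CPM in N. Within A these sums were uneven, with A1 at 12190 and A2 at 19790 CPM. Of the 9 beta cell markers, 0 rose and 5 fell in B against A, 4 rose and 0 fell in A against N, and 3 rose and 5 fell in B against N. The shares of all genes called in each comparison are given below. Summed over 5 markers of the other islet cell types, levels were 2524 to 3248 CPM in B, 3937 to 5055 CPM in A and 391.5 to 491.7 CPM in N, with 3 of the 5 lower in B against A and 3 higher and 1 lower in A against N. In sorted populations such as these, fewer cells of a type and less RNA per cell cannot be told apart. The part of such cells in the differences of the exocytosis genes was not tested, except where a value without the libraries concerned is given.

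Most of the machinery was higher in A than in N. Fewer members were called between B and A, as was the case for all genes tested. In A against N, 24 of the 43 members rose, against 23.8% of all genes tested, and 3 fell, against 21.3% of all genes, where 45.1% of genes were called in either direction (edgeR's quasi-likelihood test, Benjamini-Hochberg adjusted p under 0.05 over 17230 genes). In B against A, 6 rose, against 4.63% of all genes, and 2 fell, against 9.12% of all genes, with 13.7% of genes called in either direction. In B against N, 27 rose, against 29.7% of all genes, and 7 fell, against 30.5% of all genes, with 60.2% of genes called in either direction. Without normalisation factors, 28 members rose and 1 fell in A against N, against 47.8% and 8.04% of all genes, and 31 rose and 3 fell in B against N, against 48.0% and 19.8% of all genes. The median log2 change of the members was 0.27 in B against A, 0.73 in A against N and 1.68 in B against N, where the medians of all genes were -0.01, -0.02 and -0.03. These 3 comparisons share libraries, so their counts are not independent of each other. The fit behind them does not pair libraries by replicate number, and the members whose calls changed with that number as a block are given at the end.

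Members were also counted where the groups did not overlap. In B against A, 13 members lay higher in every B library than in every A library, against 9.67% of all genes, and 1 lay lower in every B library, against 9.28% of all genes. In A against N, 24 members lay higher in every A library, against 22.0% of all genes, and 1 lay lower, against 21.3% of all genes. In B against N, 26 lay higher in every B library, against 28.8% of all genes, and 6 lay lower, against 29.5% of all genes.

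By pattern over the 2 steps, 4 members were called higher both in A against N and in B against A: Stx1a, Syt5, Syt16 and Rab37, a pattern held by 3.2% of all genes tested. Another 20 were called higher in A against N alone of these steps, against 20.4% of all genes. Snap23, Stx4a and Rab27b fell in A against N and had no call in B against A, against 14.9% of all genes. Without a call in A against N, Syt4 and Cadps2 rose in B against A, against 1.04% of all genes, and Sytl4 and Rims3 fell, against 2.88% of all genes. The other 12 members were called at neither step, against 51.0% of all genes.

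**Figure D1:**
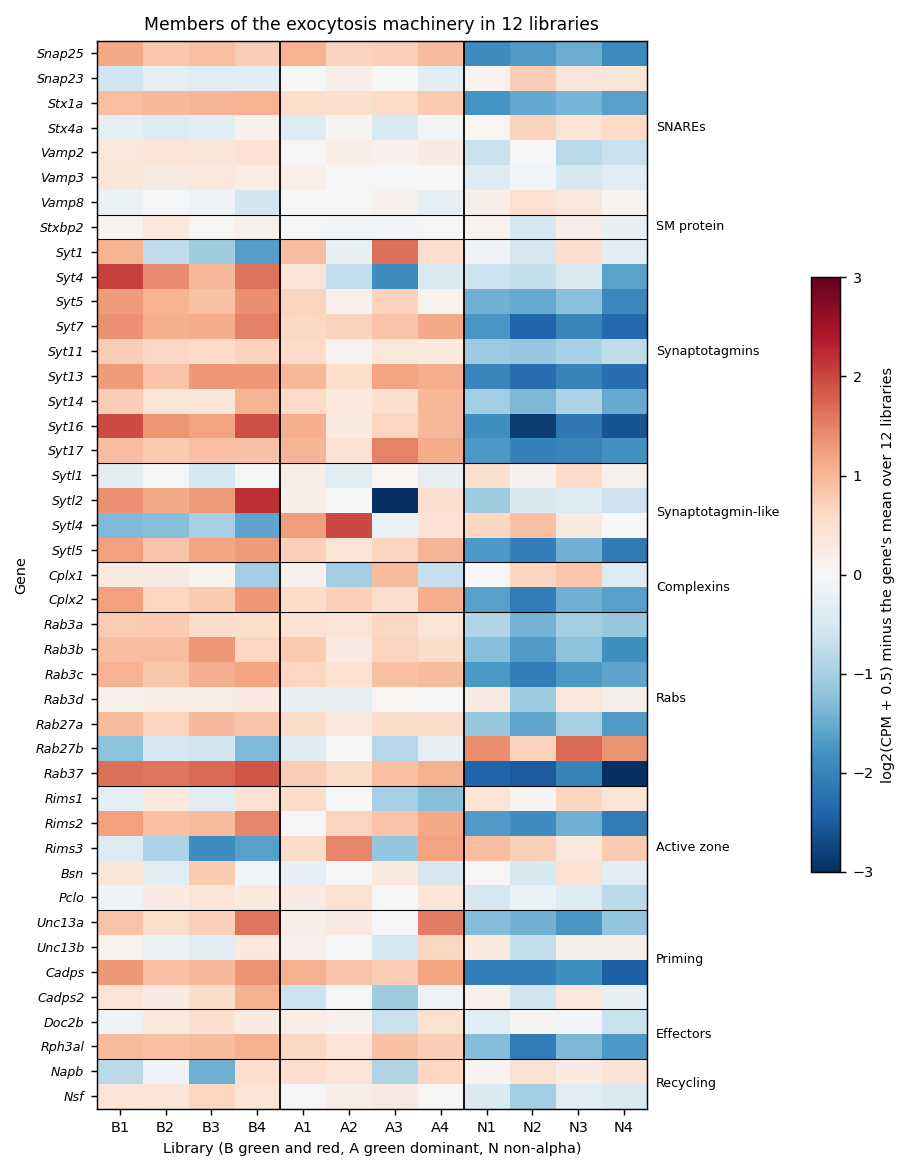
Level of each of the 43 members (rows, grouped by role) in each of the 12 libraries (columns B1 to B4, A1 to A4, N1 to N4), as log2(CPM + 0.5) minus the gene's mean over the 12 libraries. Colours stop at the ends of the scale, and Sytl2 in A3, with 0 counts, and Rab37 in N4, at 4.39 CPM, lie below it. Rows such as Snap25, Syt7, Syt13, Rab37 and Cadps are red in B and A and blue in N, Rab27b is red in N and blue in B, and Sytl4 is blue in B and red in A1 and A2.

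**Figure D2:**
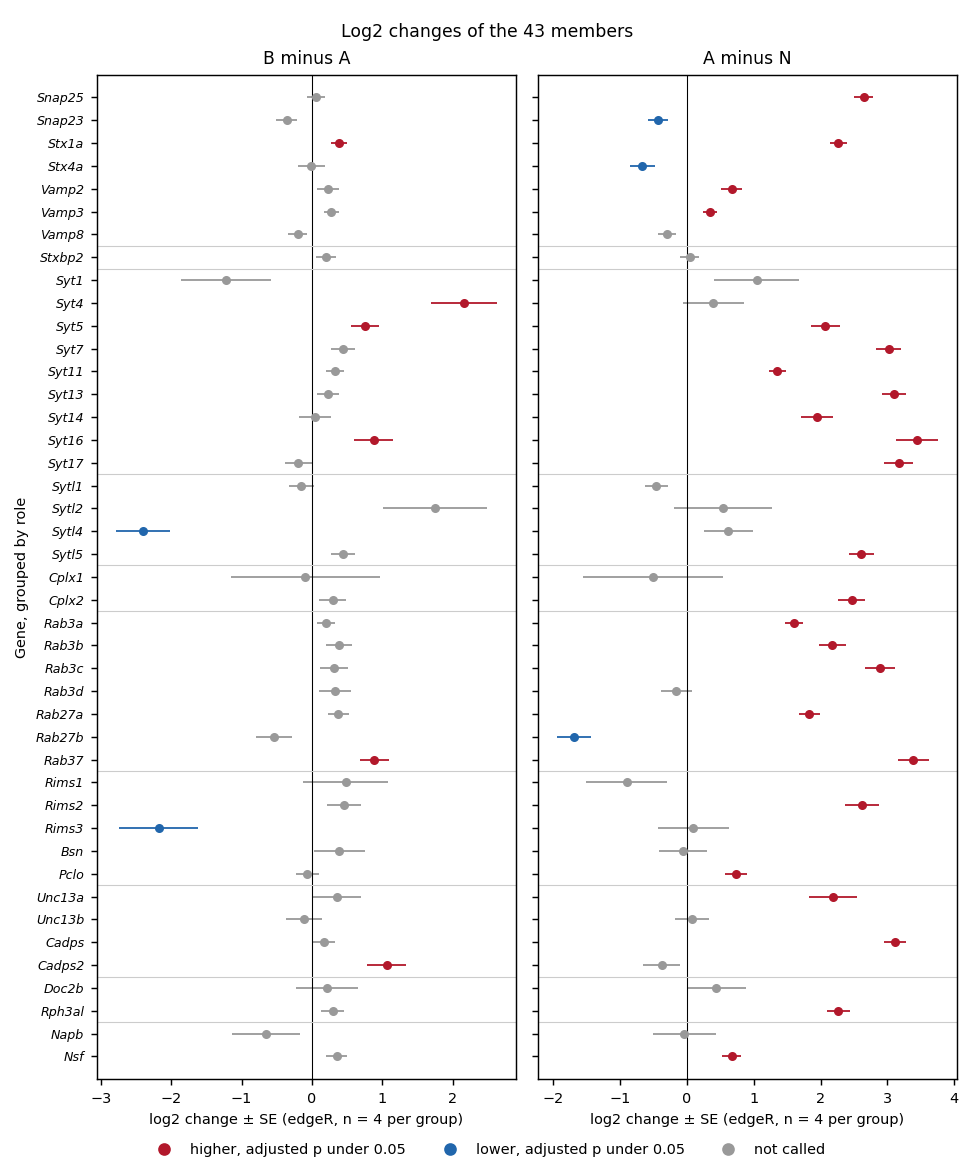
Log2 change with its standard error for each member in B minus A (left) and A minus N (right), from edgeR with 4 libraries per group. Red points are called higher and blue points lower at an adjusted p under 0.05; 24 points are red on the right, and 6 are red on the left.

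The target membrane SNAREs split by paralogue. Snap25, the SNAP protein of neurons and endocrine cells, rose in A against N, and Snap23, its widely expressed paralogue, fell, the fall being a call that several settings lost. Snap25 had 75.3, 60.1, 63.7 and 57.1 CPM in B libraries, 70.5, 54.7, 55.8 and 65.6 CPM in A libraries and 8.89, 10.02, 11.73 and 8.72 CPM in N libraries. The B and A libraries overlapped and all lay above N, with a log2 change of 2.65 ± 0.14 in A against N (adjusted p = 1.52e-08, edgeR) and 0.06 ± 0.13 in B against A (adjusted p = 0.834, edgeR). Snap23 had 34.4, 42.5, 39.8 and 41.4 CPM in B libraries, 51.5, 58.8, 51.5 and 41.4 CPM in A libraries and 55.6, 85.7, 65.9 and 67.4 CPM in N libraries. B lay below every N library, and A overlapped N at one library, A2. The log2 change of Snap23 was -0.43 ± 0.14 in A against N (adjusted p = 0.0254, edgeR), a direction that turned to 0.13 without normalisation factors, a setting that moved the median of all genes to 0.55. The call was also lost without A4, at -0.34 (adjusted p = 0.0768, edgeR), without N2, at -0.31 (adjusted p = 0.0703, edgeR), without A3 and B3 together, and in a fit of A and N alone (adjusted p = 0.0559, edgeR). In B against N, Snap23 fell by a log2 change of -0.80 ± 0.14 (adjusted p = 3.53e-04, edgeR), a call lost without normalisation factors.

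Of the syntaxins, Stx1a, the plasma membrane syntaxin of neuroendocrine cells (chromosome 5, 135052336 to 135079954 on GRCm39), rose at both steps. Stx1a had 39.3, 41.0, 42.4 and 43.5 CPM in B libraries, 30.4, 29.4, 31.9 and 35.9 CPM in A libraries and 5.68, 6.81, 7.60 and 6.41 CPM in N libraries. The 3 groups did not overlap. The log2 change was 0.38 ± 0.12 in B against A (adjusted p = 0.0452, edgeR), a 1.30-fold difference that was close to the threshold and lost its call when any one of 8 libraries was left out, and 2.27 ± 0.12 in A against N (adjusted p = 1.64e-08, edgeR). Stx4a, a syntaxin of many cell types, went the other way against N. Stx4a had 13.7, 12.5, 12.99 and 18.4 CPM in B libraries, 12.6, 17.7, 11.9 and 15.6 CPM in A libraries and 17.2, 27.1, 22.4 and 25.3 CPM in N libraries. B and A lay together, and Stx4a was lower in A than in N by a log2 change of -0.67 ± 0.19 (adjusted p = 0.0117, edgeR), though it was not called without normalisation factors.

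The granule SNAREs differed less. Vamp2 and Vamp3, VAMPs of regulated and of recycling vesicles, rose modestly against N. Vamp2 had 70.9, 73.5, 72.5 and 75.8 CPM in B libraries, 57.6, 64.3, 61.6 and 66.2 CPM in A libraries and 34.8, 55.7, 31.6 and 35.0 CPM in N libraries. The 3 groups did not overlap, and N2 stood above the other N libraries. The log2 change of Vamp2 was 0.67 ± 0.15 in A against N (adjusted p = 0.00337, edgeR) and 0.23 ± 0.15 in B against A (adjusted p = 0.360, edgeR). Vamp3 had 155, 145, 148 and 140.1 CPM in B libraries, 133, 116, 117 and 121 CPM in A libraries and 91.0, 114, 85.0 and 96.1 CPM in N libraries. The groups did not overlap for Vamp3 either, and its log2 change was 0.34 ± 0.10 in A against N (adjusted p = 0.0175, edgeR), a call that was lost without A1 or without N3. In B against A it was called higher without N2 and not with all libraries (adjusted p = 0.0999, edgeR). Vamp8, the VAMP of exocrine zymogen granules, ran in the opposite order. Vamp8 had 65.0, 72.3, 68.0 and 51.2 CPM in B libraries, 76.2, 74.7, 82.1 and 62.6 CPM in A libraries and 85.1, 104, 95.4 and 78.9 CPM in N libraries. Its log2 change was -0.50 ± 0.13 in B against N (adjusted p = 0.00504, edgeR), which turned to 0.04 without normalisation factors, and -0.30 ± 0.13 in A against N (adjusted p = 0.0816, edgeR), which passed the threshold with the replicate number as a block. Stxbp2, a partner protein that holds syntaxins, was at 89.9 ± 7.92 CPM in B, 78.2 ± 3.24 CPM in A and 76.0 ± 16.9 CPM in N (SD, n = 4 each) and was called at neither step. Without normalisation factors Stxbp2 was called higher in A and in B against N.

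Within a library, the share of each family held by each paralogue does not depend on scaling between libraries. Shares were taken from the deposited TPM (transcript levels that allow for gene length). Snap25 held 72.3% ± 4.56 in B, 66.3% ± 4.67 in A and 18.9% ± 2.94 in N of the summed TPM of Snap25 and Snap23 (SD, n = 4 each). Stx1a held 60.3% ± 4.79 in B, 54.4% ± 5.502 in A and 13.8% ± 2.71 in N of the 2 syntaxins. Snap25 and Stx1a were thus the larger share in the B and A groups and the smaller share in N, with A2 the only A library in which Stx4a exceeded Stx1a. Vamp8 kept the largest share of the 3 VAMPs in all 12 libraries, 48.2% ± 3.61 in B, 55.8% ± 3.05 in A and 67.4% ± 4.27 in N. Vamp3 held 34.4% ± 1.93 in B, 28.6% ± 1.73 in A and 21.3% ± 1.81 in N, and Vamp2 held the smallest share, 17.4% ± 2.23 in B, 15.6% ± 2.17 in A and 11.3% ± 3.44 in N.

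The synaptotagmins held 3 of the 6 members that rose in B against A. Of 9 synaptotagmins, 7 rose in A against N and 3, Syt4, Syt5 and Syt16, rose in B against A, with none lower in either comparison. Of all genes tested, 23.8% rose and 21.3% fell in A against N, and 4.63% rose and 9.12% fell in B against A. Syt4 is an atypical synaptotagmin of secretory granules (chromosome 18, 31570861 to 31580459 on GRCm39). Syt4 had 22.9, 14.6, 10.7 and 17.1 CPM in B libraries, 6.97, 2.92, 1.06 and 3.65 CPM in A libraries and 3.11, 2.97, 3.67 and 1.38 CPM in N libraries. Every B library exceeded every A library, while A overlapped N. The log2 change was 2.16 ± 0.47 in B against A (adjusted p = 0.00902, edgeR), a 4.46-fold difference called whichever single library was left out, and 0.39 ± 0.46 in A against N (adjusted p = 0.509, edgeR). Its level within A was uneven, from 1.06 CPM in A3 to 6.97 CPM in A1.

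Syt5, a vesicle synaptotagmin that binds calcium (chromosome 7, 4542764 to 4550540 on GRCm39), rose in steps. Syt5 had 30.5, 25.8, 23.0 and 33.0 CPM in B libraries, 19.9, 13.5, 20.1 and 13.3 CPM in A libraries and 4.19, 4.00, 4.85 and 2.89 CPM in N libraries. The groups did not overlap. Its log2 change was 0.75 ± 0.20 in B against A (adjusted p = 0.0266, edgeR) and 2.07 ± 0.21 in A against N (adjusted p = 6.56e-06, edgeR), and the call between B and A was lost without B1, B4, A2 or A4. Syt16, a synaptotagmin not known to bind calcium (chromosome 12, 74044435 to 74320041 on GRCm39), showed the largest fold of any member in B against N, 19.96-fold. Syt16 had 39.6, 25.4, 23.6 and 39.4 CPM in B libraries, 21.5, 12.2, 15.8 and 20.2 CPM in A libraries and 2.39, 0.950, 1.83 and 1.22 CPM in N libraries. The groups again did not overlap. Its log2 change was 0.87 ± 0.27 in B against A (adjusted p = 0.0491, edgeR), lost when any one of 9 libraries was left out, and 3.44 ± 0.31 in A against N (adjusted p = 1.74e-06, edgeR).

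The most abundant synaptotagmin by far was Syt13, an atypical member without the usual calcium-binding residues and with a described role in endocrine cell movement in the mouse pancreas. It averaged 1311 ± 184 CPM in B, 1122 ± 209 CPM in A and 131 ± 15.8 CPM in N (SD, n = 4 each), 8.56-fold higher in A than in N (adjusted p = 2.05e-08, edgeR) and not called in B against A. In TPM it was the first of the 43 members in B, at 553 ± 93.7, and in A, at 476 ± 98.0, and it held 80.2% ± 2.25 in B, 82.9% ± 0.933 in A and 73.5% ± 1.59 in N of the TPM of the 9 synaptotagmins. Syt13 thus led its family in every group, N included. The family as a whole summed to 529 to 767 TPM in B, 406 to 659 TPM in A and 24.9 to 43.9 TPM in N. The deposited TPM were not scaled with the factors used for CPM, so these sums do not measure the difference between groups.

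Syt7, a high-affinity calcium sensor of hormone granules, was second in its family in B and A by mean share of TPM, though Syt5 held a larger share in B3 and A1. Syt7 had 84.0, 69.2, 70.2 and 92.6 CPM in B libraries, 49.9, 52.4, 58.8 and 71.5 CPM in A libraries and 9.22, 5.74, 7.83 and 5.96 CPM in N libraries. Every B and A library lay above every N library, and only the A4 value reached into the B range. The log2 change of Syt7 was 3.02 ± 0.18 in A against N (adjusted p = 4.37e-08, edgeR) and 0.44 ± 0.17 in B against A (adjusted p = 0.1000, edgeR). Syt11, which does not sense calcium, also rose against N. Syt11 had 48.8, 44.8, 44.4 and 46.8 CPM in B libraries, 43.6, 31.1, 37.0 and 35.6 CPM in A libraries and 13.4, 12.8, 14.5 and 16.9 CPM in N libraries. All B libraries lay above all A libraries, but the log2 change of 0.33 ± 0.13 was not called (adjusted p = 0.103, edgeR). The estimated counts of Syt11 were not whole in 10 libraries.

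Of the rest of the family, Syt14 averaged 13.8 ± 3.32 CPM in B, 13.4 ± 2.92 CPM in A and 3.48 ± 0.709 CPM in N, and Syt17 averaged 19.9 ± 0.828 CPM in B, 22.8 ± 6.73 CPM in A and 2.53 ± 0.281 CPM in N (SD, n = 4 each). Both rose in A against N and neither was called in B against A. Syt1, the fast calcium sensor of synaptic vesicles, was low and uneven at 2.61 ± 2.89 CPM in B, 6.15 ± 3.56 CPM in A and 2.98 ± 1.17 CPM in N (SD, n = 4 each). It was called in no comparison with all libraries, and B1 with 6.90 CPM stood far above the other B libraries. Without B1, Syt1 was called lower in B against A, at -2.37 (adjusted p = 0.0191, edgeR), and in B against N, at -1.32 (adjusted p = 0.0471, edgeR), and without normalisation factors it was called higher in A against N.

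**Figure D3:**
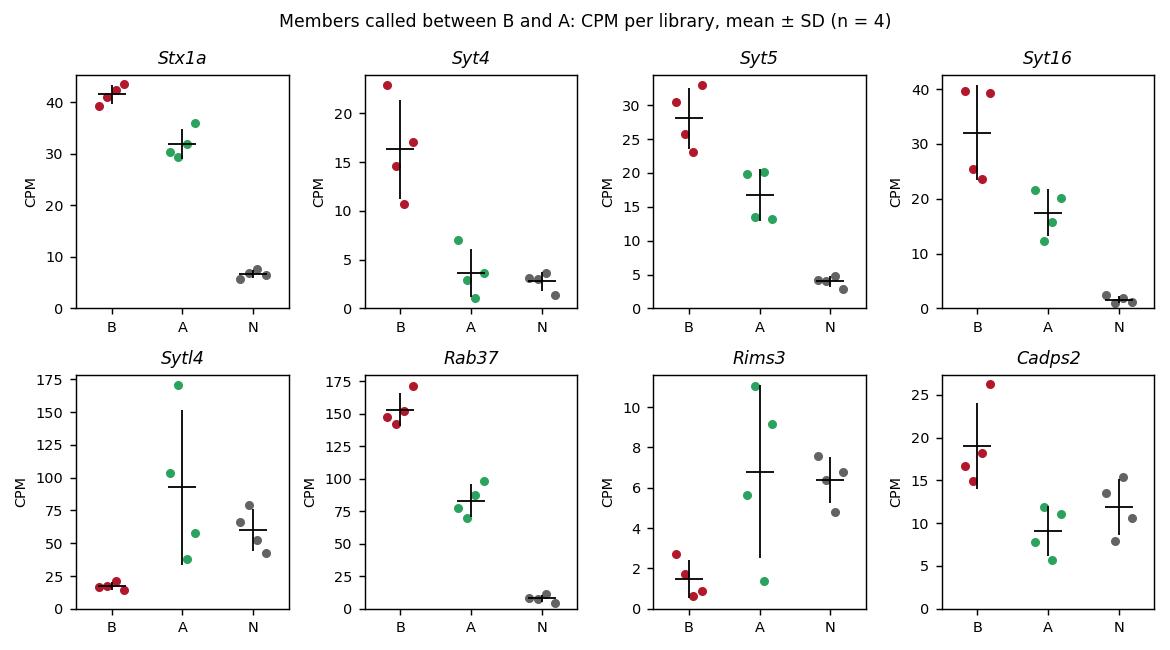
CPM in each library (points), with the group mean and SD (n = 4), for the 8 members called between B and A; groups run B, A, N from left to right, and each panel starts at 0. The B points lie above all A points for Stx1a, Syt4, Syt5, Syt16, Rab37 and Cadps2, below all A points for Sytl4, and overlap A at A3 for Rims3.

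The synaptotagmin-like proteins, Rab27 effectors that tether granules, did not move together. Sytl4 or granuphilin, which docks insulin granules (chromosome X, 132837134 to 132882561 on GRCm39), fell in B against A. Sytl4 had 16.9, 17.4, 21.4 and 14.1 CPM in B libraries, 104, 171, 37.7 and 58.1 CPM in A libraries and 66.4, 79.4, 52.4 and 42.8 CPM in N libraries. Every B library lay below every A and every N library, and the A libraries spread widely. The log2 change was -2.40 ± 0.38 in B against A (adjusted p = 0.00164, edgeR), 5.29-fold lower in B, and -1.78 ± 0.37 in B against N (adjusted p = 0.00103, edgeR), while A against N was not called (0.62 ± 0.36, adjusted p = 0.177, edgeR). Sytl4 was called higher in A against N without A3, at 0.88 (adjusted p = 0.0316, edgeR), and without normalisation factors.

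The A libraries ran in the same order for Sytl4 as for the sum of 9 beta cell markers, which was 12190 CPM in A1, 19790 in A2, 5187 in A3 and 8356 in A4. The N libraries also had the same order in both, and the B libraries did not, with Sytl4 highest in B3 and the marker sum highest in B1. N3, with a sum of 4027 CPM inside the B range, and N4, with 3742 CPM below it, had 52.4 and 42.8 CPM of Sytl4. Without A1 and A2 together, the log2 change of Sytl4 in B against A was -1.46 (adjusted p = 0.0149, edgeR). In A3, whose beta cell marker sum of 5187 CPM was closest to the 4006 to 4666 CPM of B libraries, Sytl4 was at 37.7 CPM, above all 4 B libraries. The mesenchymal sum was also highest in A2, at 10310 CPM, and lowest in A3, at 2524 CPM. The part of beta cell or mesenchymal RNA in the fall of Sytl4 was not tested beyond these values.

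**Figure D4:**
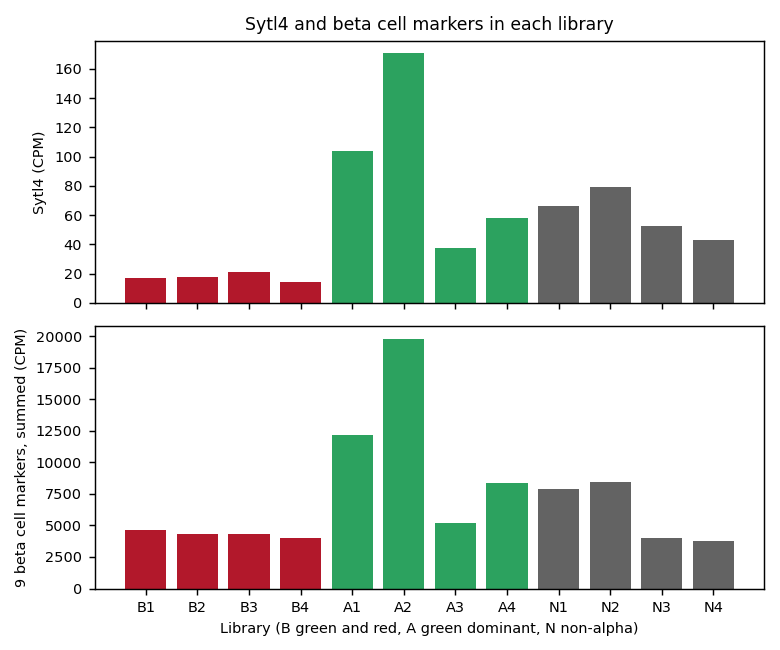
Sytl4 (top, CPM) and the sum of 9 beta cell markers (bottom, CPM) in each of the 12 libraries, as bars from 0. A2 and A1 are the highest for both measures, and the B libraries lie at 14.1 to 21.4 CPM for Sytl4 and 4006 to 4666 CPM for the markers.

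Sytl2, a Rab27a effector described on glucagon granules of mouse alpha cells, ran the other way. Sytl2 had 21.8, 18.4, 20.4 and 39.3 CPM in B libraries, 9.46, 8.29, 0 and 11.9 CPM in A libraries and 3.65, 5.66, 6 and 5.16 CPM in N libraries. All B libraries lay above all A libraries, and A3 held no Sytl2 count, which allows a level of up to 0.133 CPM (3 counts, counting error only). With the zero the log2 change in B against A was 1.75 ± 0.74 and not called (adjusted p = 0.136, edgeR), and without A3 it was called. In B against N it was 2.28 ± 0.75 (adjusted p = 0.0178, edgeR), a call lost without B4. Sytl2 was also called higher in A against N without A3, at 0.95 (adjusted p = 0.0147, edgeR), and not with all libraries (0.54 ± 0.73, adjusted p = 0.574, edgeR). Sytl5, a further Rab27 effector, averaged 54.1 ± 6.88 CPM in B, 40.0 ± 6.97 CPM in A and 6.55 ± 1.59 CPM in N (SD, n = 4 each) and rose 6.11-fold in A against N (adjusted p = 2.15e-07, edgeR). Sytl1, described on zymogen granules, averaged 15.8 ± 2.52 CPM in B, 17.54 ± 3.28 CPM in A and 24.1 ± 4.03 CPM in N (SD, n = 4 each) and fell in B against N (-0.61 ± 0.18, adjusted p = 0.00948, edgeR), though it was not called without normalisation factors. In A against N it lay near the threshold (-0.46 ± 0.18, adjusted p = 0.0506, edgeR) and was called lower without B3, A1 or N2 and by DESeq2.

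The leading synaptotagmin-like gene therefore differed between groups. Sytl5 held 52.4% ± 3.16 in B, 32.4% ± 11.9 in A and 7.43% ± 1.49 in N of the TPM of the 4 genes (SD, n = 4 each), and Sytl4 held 12.2% ± 3.62 in B, 45.6% ± 17.3 in A and 52.2% ± 8.56 in N. In B every library was led by Sytl5, at 49.0% to 56.6%. In A the libraries A1 and A2 were led by Sytl4, at 49.6% and 68.3%, and A3 and A4 by Sytl5, at 43.2% and 41.0%. In N every library was led by Sytl4, at 45.4% to 63.8%, and Sytl5 held 5.66% to 9.26%.

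Of the complexins, which clamp and then support SNARE complexes, Cplx2 carried nearly all of the signal in B and A, with 96.6% to 100% of the TPM of both genes in B libraries, 92.7% to 100% in A libraries and 73.7% to 93.6% in N libraries. Cplx2 had 78.0, 51.9, 57.9 and 82.8 CPM in B libraries, 48.7, 54.6, 46.3 and 71.4 CPM in A libraries and 10.3, 7.48, 11.9 and 10.3 CPM in N libraries. B and A overlapped and lay above N, with a log2 change of 2.46 ± 0.20 in A against N (adjusted p = 6.87e-07, edgeR). Cplx1 had 0.742, 0.750, 0.615 and 0 CPM in B libraries, 0.655, 0, 1.51 and 0.138 CPM in A libraries and 0.542, 1.11, 1.34 and 0.289 CPM in N libraries. Cplx1 was near the limit of detection in all 3 groups, with at most 35 counts in a library, and it was called in no comparison. The 0 in B4 allows up to 0.162 CPM and the 0 in A2 up to 0.141 CPM (3 counts each).

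Rab37, a Rab of secretory granules (chromosome 11, 114982257 to 115053062 on GRCm39), was called in B against A. In the fit of all 12 libraries this was 1 of 7 Rabs, a share near the 13.7% of all genes called there in either direction. Rab37 had 147, 142, 152 and 172 CPM in B libraries, 77.2, 69.6, 87.7 and 98.3 CPM in A libraries and 8.57, 7.76, 11.1 and 4.39 CPM in N libraries. The 3 groups did not overlap. Its log2 change was 0.88 ± 0.21 in B against A (adjusted p = 0.0133, edgeR), a 1.84-fold difference called whichever single library was left out though not without A1 and A2 together, and 3.39 ± 0.23 in A against N (adjusted p = 1.09e-07, edgeR). Rab37 overlaps Cd300lf on the opposite strand, and Cd300lf had at most 5.04 CPM in any library.

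Rab27a and Rab27b, which recruit the synaptotagmin-like and other effectors to granules, went in opposite directions. Rab27a had 149, 124, 151 and 140.5 CPM in B libraries, 114, 97.3, 113 and 113 CPM in A libraries and 35.0, 25.9, 38.4 and 23.4 CPM in N libraries. Every B library lay above every A library and every A library above every N library, with a log2 change of 1.83 ± 0.15 in A against N (adjusted p = 8.33e-07, edgeR) and 0.37 ± 0.15 in B against A (adjusted p = 0.115, edgeR). In a fit of B and A alone, Rab27a was called higher in B, at 0.36 (adjusted p = 0.0345, edgeR). Rab27b had 9.38, 15.8, 14.8 and 8.77 CPM in B libraries, 17.1, 22.9, 12.4 and 18.8 CPM in A libraries and 59.9, 37.0, 74.8 and 58.4 CPM in N libraries. N lay above the other groups, and the log2 change of Rab27b was -1.69 ± 0.26 in A against N (adjusted p = 1.75e-04, edgeR) and -2.23 ± 0.26 in B against N (adjusted p = 8.50e-06, edgeR). Of the summed TPM of the 2 genes, Rab27a held 91.2% ± 3.40 in B, 84.1% ± 4.18 in A and 29.7% ± 5.32 in N (SD, n = 4 each).

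Of the Rab3 genes, whose products sit on secretory vesicles, 3 of 4 rose in A against N, where 23.8% of all genes did. Rab3a had 64.0, 64.5, 55.3 and 53.7 CPM in B libraries, 50.7, 49.7, 57.8 and 49.1 CPM in A libraries and 19.8, 13.6, 18.1 and 16.8 CPM in N libraries. B and A overlapped and lay above N, with a log2 change of 1.60 ± 0.13 in A against N (adjusted p = 6.05e-07, edgeR). Rab3b averaged 32.6 ± 6.30 CPM in B, 25.02 ± 3.67 CPM in A and 5.54 ± 1.23 CPM in N (SD, n = 4 each). Rab3c, the lowest of the 4, averaged 12.9 ± 1.36 CPM in B, 10.4 ± 1.65 CPM in A and 1.40 ± 0.267 CPM in N (SD, n = 4 each). Both of these rose in A against N and neither was called in B against A. Rab3d, known from zymogen granules of exocrine cells, differed from its paralogues. Rab3d had 394, 421, 421 and 429.5 CPM in B libraries, 298, 301, 381 and 352 CPM in A libraries and 441, 174, 459 and 413 CPM in N libraries. N2 was far below the other N libraries, and its acinar marker sum of 65650 CPM was the lowest and its erythroid sum of 222900 CPM the highest of the N group. Rab3d was called in no comparison in the main fit. Without N2 it was called higher in B than A and lower in A than N, and without normalisation factors higher in B than N. It held the largest share of Rab3 TPM in every library, 56.3% ± 2.20 in B, 55.0% ± 2.24 in A and 82.2% ± 4.90 in N (SD, n = 4 each), and Rab3a held 24.4% ± 2.49 in B, 26.4% ± 1.22 in A and 12.7% ± 3.57 in N.

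**Figure D5:**
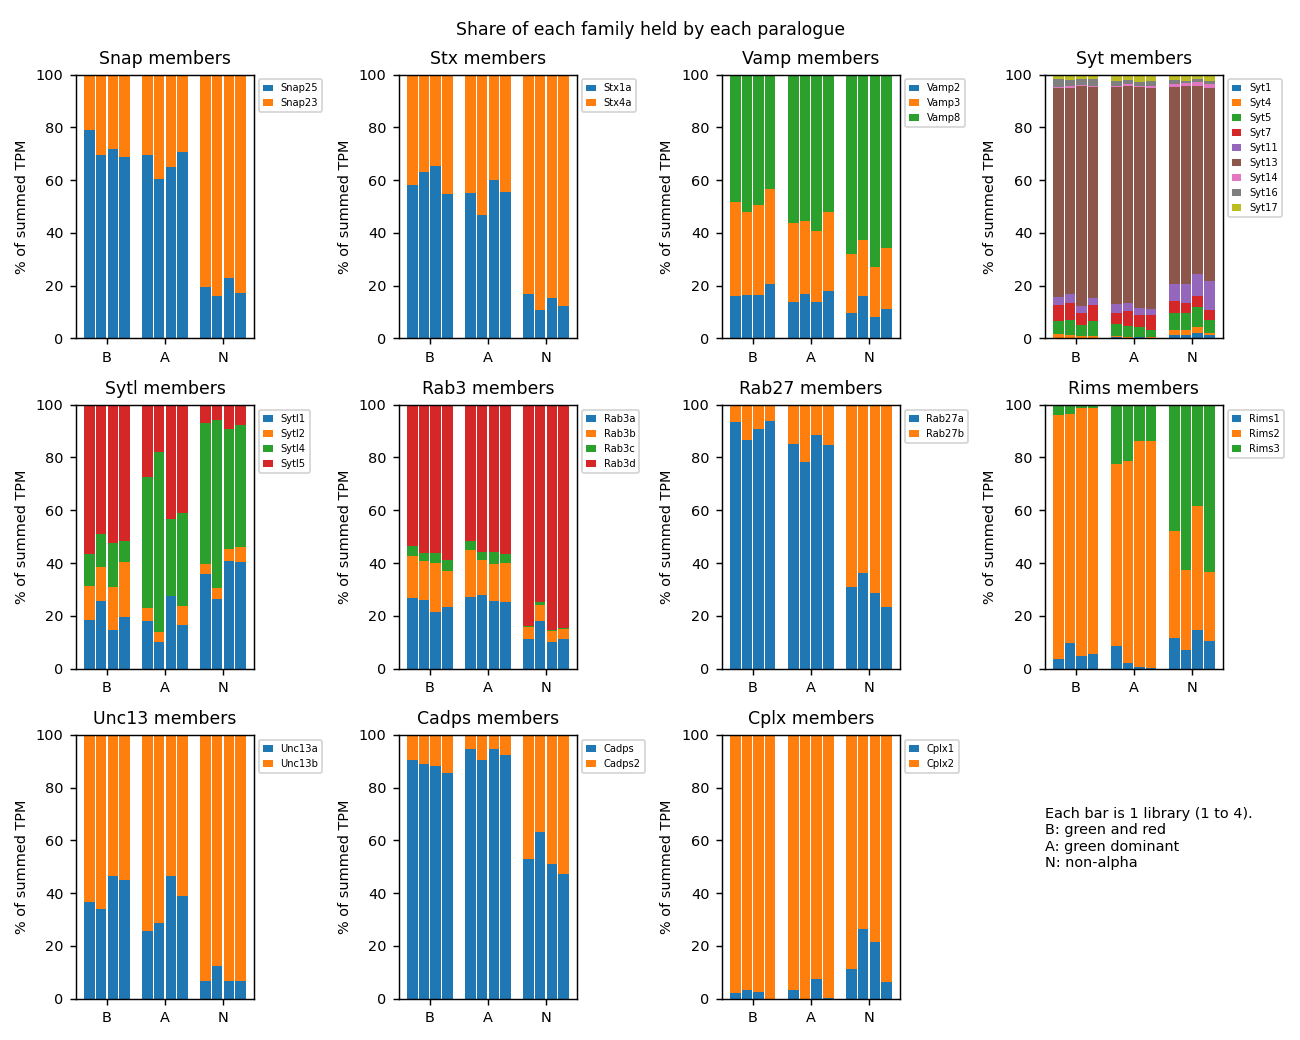
Share of the summed TPM of each family held by each paralogue, in %, with 1 stacked bar per library and the libraries of B, A and N from left to right. Snap25, Stx1a, Rab27a and Rims2 have mean shares of 72.3%, 60.3%, 91.2% and 91.6% in B and of 18.9%, 13.8%, 29.7% and 36.1% in N, and the Sytl panel shows Sytl5 leading in B and Sytl4 leading in N.

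Of the active zone scaffolds, Rims2, a Rab3-binding scaffold used in hormone release, was the main one in alpha cells. Rims2 had 34.4, 26.9, 28.2 and 40.3 CPM in B libraries, 13.6, 23.1, 26.2 and 32.0 CPM in A libraries and 4.05, 3.56, 4.89 and 2.95 CPM in N libraries. All B and A libraries lay above N, and A1 was lowest among them. Its log2 change was 2.62 ± 0.26 in A against N (adjusted p = 3.98e-06, edgeR) and 0.45 ± 0.24 in B against A (adjusted p = 0.235, edgeR). Rims3, a short family member (chromosome 4, 120712013 to 120753776 on GRCm39), fell in B. Rims3 had 2.71, 1.73, 0.653 and 0.866 CPM in B libraries, 5.62, 11.1, 1.38 and 9.16 CPM in A libraries and 7.55, 6.38, 4.82 and 6.80 CPM in N libraries. A3 fell inside the B range and the other 3 A libraries lay above it. The log2 change was -2.18 ± 0.56 in B against A (adjusted p = 0.0216, edgeR), 4.54-fold lower in B, a call lost without B3, B4 or A2 and without A1 and A2 together, and -2.09 ± 0.56 in B against N (adjusted p = 0.00568, edgeR). Counts behind these values were few, 16 to 73 in B, 31 to 266 in A and 126 to 212 in N.

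In TPM, Rims2 held 91.6% ± 3.21 in B, 79.3% ± 8.07 in A and 36.1% ± 9.52 in N of the 3 Rims genes (SD, n = 4 each), and Rims3 held 2.52% ± 1.48 in B, 17.8% ± 4.72 in A and 53.0% ± 12.2 in N. Rims3 had 1.51 TPM from 31 counts in A3 and 1.88 TPM from 120 counts in A1, so its deposited TPM did not follow its counts there. Pclo, a large scaffold protein of release sites, averaged 33.2 ± 5.05 CPM in B, 34.7 ± 4.55 CPM in A and 20.9 ± 3.55 CPM in N (SD, n = 4 each) and rose in A against N (adjusted p = 0.00228, edgeR). Bsn, its relative, averaged 3.93 ± 1.54 CPM in B, 3.01 ± 0.837 CPM in A and 3.15 ± 1.07 CPM in N, and Rims1 averaged 1.32 ± 0.483 CPM in B, 0.950 ± 0.839 CPM in A and 1.76 ± 0.357 CPM in N (SD, n = 4 each). Neither Bsn nor Rims1 was called in any comparison in the main fit. Bsn was called higher in B against N without normalisation factors, and Rims1 lower in A against N without A1 and A2 together.

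The priming factors again separated by paralogue. Unc13a and Unc13b open syntaxin for SNARE assembly. Unc13a had 18.8, 14.7, 16.8 and 31.5 CPM in B libraries, 11.6, 12.3, 9.80 and 30.2 CPM in A libraries and 3.80, 3.41, 2.67 and 4.17 CPM in N libraries. B4 and A4 were the highest of their groups, and all B and A libraries lay above N. The log2 change was 2.19 ± 0.36 in A against N (adjusted p = 3.56e-04, edgeR) and 0.35 ± 0.34 in B against A (adjusted p = 0.560, edgeR). Unc13b had 51.9, 41.5, 38.7 and 59.7 CPM in B libraries, 52.6, 46.9, 33.4 and 74.0 CPM in A libraries and 59.1, 28.9, 54.2 and 54.0 CPM in N libraries. Unc13b overlapped among the 3 groups and was called in none of the comparisons in the main fit, with N2 the lowest library of all. Without normalisation factors it was called higher in A against N. Unc13b still held the larger share of Unc13 TPM, 59.5% ± 6.13 in B, 65.0% ± 9.47 in A and 91.9% ± 2.78 in N (SD, n = 4 each). The counts of Unc13a were not whole in any of the 12 libraries, and the gene overlaps Colgalt1 on the opposite strand, which had 41.8 to 59.9 CPM in B, 62.4 to 98.2 CPM in A and 90.9 to 132 CPM in N.

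Cadps and Cadps2, the CAPS proteins that prime dense-core granules, also differed. Cadps had 133, 101, 106 and 137 CPM in B libraries, 114, 96.6, 90.5 and 123 CPM in A libraries and 12.3, 12.6, 14.6 and 9.36 CPM in N libraries. Cadps overlapped between B and A and stood above N, with a log2 change of 3.12 ± 0.17 in A against N (adjusted p = 1.43e-08, edgeR) and 0.17 ± 0.15 in B against A (adjusted p = 0.512, edgeR). Cadps2 had 16.6, 14.9, 18.3 and 26.3 CPM in B libraries, 7.77, 11.9, 5.68 and 11.1 CPM in A libraries and 13.6, 7.96, 15.4 and 10.6 CPM in N libraries. For Cadps2 (chromosome 6, 23262772 to 23839420 on GRCm39, overlapping Rnf133 and Rnf148, neither of which passed the filter on low counts) every B library exceeded every A library, A overlapped N, and B overlapped N. The log2 change was 1.06 ± 0.28 in B against A (adjusted p = 0.0225, edgeR), a 2.08-fold difference lost without B4 or without A1, and 0.68 ± 0.27 in B against N (adjusted p = 0.0461, edgeR), lost without any one of 8 libraries and with the replicate number as a block. Cadps held 88.3% ± 2.17 in B, 93.1% ± 1.96 in A and 53.6% ± 6.75 in N of the TPM of both genes (SD, n = 4 each).

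The promoters of these 2 priming pairs are shown as examples. Each pair has 1 gene with a call in A against N, Unc13a or Cadps, and 1 without, Unc13b or Cadps2. Other pairs had the same split of calls and are not shown. Sequences run from 250 bases before to 50 bases after the annotated start, from RefSeq on GRCm38.p6, a build other than that of the gene coordinates above. Capitals mark the motifs TTCAGCACC and GGACAGC (the left and right parts of the RE1 element that the repressor REST binds) and CAGATG (an E-box form that NEUROD1 and NEUROG3 bind) on either strand. TAATTA, a homeodomain core, was also searched for.
Unc13a, chr8:71671708-71672007, minus strand: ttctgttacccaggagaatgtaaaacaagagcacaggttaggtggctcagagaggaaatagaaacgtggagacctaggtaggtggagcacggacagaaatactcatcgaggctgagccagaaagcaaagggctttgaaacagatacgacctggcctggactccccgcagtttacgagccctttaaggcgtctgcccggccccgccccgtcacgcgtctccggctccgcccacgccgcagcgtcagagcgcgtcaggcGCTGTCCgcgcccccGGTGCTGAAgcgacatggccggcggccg
Unc13b, chr4:43058703-43059002, plus strand: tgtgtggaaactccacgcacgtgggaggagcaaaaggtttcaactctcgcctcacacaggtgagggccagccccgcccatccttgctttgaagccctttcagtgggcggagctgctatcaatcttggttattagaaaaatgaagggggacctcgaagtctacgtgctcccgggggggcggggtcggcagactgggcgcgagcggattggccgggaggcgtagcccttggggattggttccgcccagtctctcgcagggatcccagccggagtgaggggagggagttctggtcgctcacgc
Cadps, chr14:12823030-12823329, minus strand: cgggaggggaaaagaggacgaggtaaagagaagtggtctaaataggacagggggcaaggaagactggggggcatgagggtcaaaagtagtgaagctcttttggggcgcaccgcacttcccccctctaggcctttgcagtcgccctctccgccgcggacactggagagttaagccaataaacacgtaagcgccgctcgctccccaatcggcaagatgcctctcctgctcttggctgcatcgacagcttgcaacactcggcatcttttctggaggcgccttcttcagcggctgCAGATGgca
Cadps2, chr6:23839372-23839671, minus strand: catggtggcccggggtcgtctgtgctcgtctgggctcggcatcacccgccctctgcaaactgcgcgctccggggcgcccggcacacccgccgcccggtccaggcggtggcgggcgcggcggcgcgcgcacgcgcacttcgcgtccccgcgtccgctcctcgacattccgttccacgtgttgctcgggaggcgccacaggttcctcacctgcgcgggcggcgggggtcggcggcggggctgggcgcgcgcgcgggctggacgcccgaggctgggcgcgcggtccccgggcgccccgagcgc
The Unc13a window held both RE1 parts on the strand opposite the gene, from base 8 to base 31 after the start with 8 bases between them, and both parts lay within 10 bases of each other in 12 of 32851 windows, 0.0365%. The Unc13b and Cadps2 windows held none of the 4 motifs, and the Cadps window held 1 CAGATG. The pairs Cplx2 with Cplx1 and Rab3a with Rab3d had the same split of calls in A against N. Their windows also held none of the 4 motifs, in the called and the uncalled genes alike. RefSeq windows were found for 30 of the 43 members. TTCAGCACC lay in 1 of these 30 and in 0.371% of all windows, GGACAGC in 2 and in 6.56%, CAGATG in 4 and in 17.2%, and TAATTA in 0 and in 5.29%. Members were counted by gene, with 33 windows for the 30, and the percentages by window. The median share of G and C bases was 61.3% in member windows and 52.7% in all windows, and its part in these counts was not tested. The motif matches are matches of letters, not sites of binding.

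Of the remaining effectors, Rph3al, which binds Rab3 and Rab27 on hormone granules, was the second most abundant member in B by TPM, at 221 ± 22.0. It averaged 223 ± 12.1 CPM in B, 182 ± 24.6 CPM in A and 37.8 ± 9.37 CPM in N (SD, n = 4 each), with a log2 change of 2.26 ± 0.17 in A against N (adjusted p = 3.06e-07, edgeR) and 0.30 ± 0.16 in B against A (adjusted p = 0.255, edgeR). Doc2b, a calcium-binding SNARE regulator, was low at 1.51 ± 0.353 CPM in B, 1.30 ± 0.525 CPM in A and 0.965 ± 0.315 CPM in N (SD, n = 4 each). It was called in no comparison in the main fit, and higher in B against N without normalisation factors. Nsf, the ATPase that takes spent SNARE complexes apart, averaged 144 ± 12.7 CPM in B, 114 ± 11.9 CPM in A and 71.3 ± 13.9 CPM in N (SD, n = 4 each) and rose in A against N by a log2 change of 0.67 ± 0.14 (adjusted p = 0.00208, edgeR). Every B library exceeded every A library for Nsf, with a log2 change of 0.35 ± 0.14 that was not called (adjusted p = 0.126, edgeR) except without N2. Napb, an adaptor for Nsf, averaged 2.70 ± 1.78 CPM in B, 4.23 ± 1.79 CPM in A and 4.36 ± 0.563 CPM in N (SD, n = 4 each) and was called in no comparison.

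Levels of different members were set side by side only in TPM. In B the order began with Syt13 at 553 ± 93.7, Rph3al at 221 ± 22.0, Rab3d at 183 ± 7.14 and Vamp8 at 174 ± 19.0 TPM (SD, n = 4). The Syt13 libraries lay above those of every other member, and Rab3d and Vamp8 overlapped. Vamp3, Rab37, Stxbp2, Rab3a, Rab27a and Snap25 followed, at 124, 114, 80.6, 79.3, 78.0 and 73.3 TPM, and in that row Vamp3 overlapped Rab37, and Stxbp2, Rab3a, Rab27a and Snap25 overlapped each other. In all, 29 members had a mean of at least 10 TPM in B, 27 in A and 13 in N, and 6, 4 and 14 had a mean under 1 TPM in B, A and N. The deposited TPM were not scaled with the factors used for CPM, so these counts do not compare levels between groups. Vamp8, for instance, averaged 201 TPM in A and 117 TPM in N, but 73.9 CPM in A and 90.85 CPM in N.

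Paralogue choice was tested as the log2 ratio of the counts of 2 genes within a library, in 12 pairs and 3 comparisons, with an exact two-sided permutation test over the 70 splits of 4 against 4. The smallest p that this design allows is 0.0286, and every call below has that p and a Benjamini-Hochberg adjusted p of 0.0468 over the 36 tests, from groups that do not overlap. These splits ignore the pairing of libraries by replicate number, and an exact permutation test over the 4 pairs could not pass 0.05. The calls therefore hold for the unpaired test only. Without any one of the 4 B libraries none of the 36 ratios passed, since 19 rather than 22 tests had the smallest p and their adjusted p was then 0.0541. The ratios in A against N use no B library, and their differences and p were the same there. Without any one A or N library 21 to 25 passed. In A against N, 9 of 12 ratios rose and none fell. The ratio of Snap25 to Snap23 rose by 3.07, Rab27a to Rab27b by 3.54, Cadps to Cadps2 by 3.52, Stx1a to Stx4a by 2.94 and Rims2 to Rims3 by 2.82 on the log2 scale, each in all 4 same-numbered pairs of libraries. Unc13a to Unc13b rose by 1.97, Rab3a to Rab3d by 1.68, Syt7 to Syt11 by 1.68 and Vamp2 to Vamp8 by 1.001, the last of which missed the threshold when TPM replaced counts. Vamp2 to Vamp3, Sytl4 to Sytl2 and Cplx2 to Cplx1 were not called in A against N.

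In B against N, 10 ratios rose and 1 fell. The 10 include Cplx2 to Cplx1, at 3.92, a size that rests on few Cplx1 counts, at most 35 in a library and 0 in B4. Without B4, N2 or N3 its p was 0.0571 (exact permutation test on 35 splits). Rims2 to Rims3 differed most, by 5.35, followed by Rab27a to Rab27b at 4.47, and the ratio of Sytl4 to Sytl2 fell, at -4.00 on the log2 scale. In B against A, 2 ratios fell and none rose. The ratio of Cadps to Cadps2 differed by -0.92, which missed the threshold when TPM replaced counts (adjusted p = 0.0857, exact permutation test). The ratio of Sytl4 to Sytl2 differed by -5.67, a size that rests on the A3 library with no Sytl2 count, and without A3 it was -3.83 (adjusted p = 0.0429, exact permutation test on 35 splits). For Rab27a to Rab27b and Vamp2 to Vamp8 the ratio was higher in B in all 4 same-numbered pairs, by 0.93 and 0.44, but neither passed (adjusted p = 0.0791 for both, exact permutation test).

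Other exocytosis genes, a list of 73 outside the members of which 72 were in the table and 66 were tested, are to be read against the same shares of all genes. In B against A, 7 rose and 1 fell, against 4.63% and 9.12% of all genes. In A against N, 33 rose and 10 fell, against 23.8% and 21.3% of all genes. In B against N, 39 rose and 15 fell, against 29.7% and 30.5% of all genes. The median log2 changes of the 66 tested genes were 0.10, 0.53 and 0.72 in these 3 comparisons. The 9 genes of the exocyst, a tethering complex, included 7 that rose in A against N, where 23.8% of all genes did, and none that were called in B against A, where 13.7% of all genes were. Of 9 further SNAREs tested, 3 rose and 2 fell in A against N, shares near the 23.8% and 21.3% of all genes, and none was called in B against A.

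Of this list, Syt3 and Syn2, a synaptotagmin and a synapsin, rose by 1.11 ± 0.20 and 0.94 ± 0.20 in B against A (adjusted p = 0.00352 and 0.00808, edgeR). Doc2a, a relative of Doc2b, was at 4.83 ± 0.537 CPM in B, 1.02 ± 0.660 CPM in A and 0.183 ± 0.119 CPM in N and rose by 2.23 ± 0.54 in B against A (adjusted p = 0.0161, edgeR). Unc13d, the Unc13 paralogue of blood cells, was at 0.597 ± 0.654 CPM in B, 2.56 ± 0.630 CPM in A and 6.30 ± 2.82 CPM in N and fell, with a log2 change of -2.07 ± 0.58 in B against A (adjusted p = 0.0306, edgeR). The immune marker sum was 55.9 to 96.4 CPM in B, 112 to 366 CPM in A and 677 to 918 CPM in N, and its part in the Unc13d values was not tested.

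Against N, Baiap3, an Unc13-related protein of dense-core granules, averaged 415 ± 80.9 CPM in B, 367 ± 73.0 CPM in A and 37.8 ± 10.2 CPM in N (SD, n = 4 each) and rose by 3.28 ± 0.22 in A (adjusted p = 1.19e-07, edgeR). Syp, the vesicle membrane protein synaptophysin, rose by 2.20 ± 0.15 and Syt9 by 2.93 ± 0.24 in A against N. Syn1 rose by 3.63 ± 0.25 in B against N. Stxbp6, Rab26, Sypl and Rims4 fell in A against N, with log2 changes of -1.16 ± 0.20, -1.504 ± 0.31, -0.75 ± 0.17 and -1.84 ± 0.42. Rab26 is known from acinar granules and Sypl is a widely expressed relative of synaptophysin. The acinar marker sums given above were also higher in N than in B and A, and their part in these values was not tested.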

How the data were processed

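RNA was measured in 12 libraries of sorted cells in 3 groups of 4. Each gene has an estimated count and a TPM value per library in the authors' tables, per the file headers, and these tables are on GRCm39 (with the reporter sequences) and on mm10. The submitters' processing notes name STAR 2.5.2b and DRAGEN, with no word on which table each made, and the use of strand in counting is not stated. The deposited estimated counts on GRCm39 were rounded, which changed no total by over 0.000286%. Genes were filtered with filterByExpr, scaled with TMM factors (1.1 to 1.14 in B, 1.12 to 1.18 in A, 0.732 to 0.81 in N) and fitted over all 12 libraries with group as the only term, by the quasi-likelihood test of edgeR 4.0.16 in R 4.3.3, with Benjamini-Hochberg adjustment over 17230 genes at 0.05 and a common biological coefficient of variation of 0.305. Standard errors were derived from the F statistic. The deposited TPM, to which no TMM factors were applied, were used to set genes side by side within a library. Sums of TPM and counts of members by TPM level in each group are descriptions and do not compare levels between groups. Ratios of counts had 0.5 added to both genes. Tests were checked on simulated data.

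The members, gene lists and marker lists were chosen with earlier results of these data known. All 43 members are named; values per library are given for members called in B against A and for the genes of the 12 pairs, and of the other exocytosis genes up to 4 with the smallest adjusted p per direction and comparison are named, except for a gene that is not reported here. Of the members, 6 have counts that are not whole in some library, and 7 overlap another protein-coding gene.

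The replicate numbers were taken as pairs: per the labels each replicate has its own mother, the Y-linked genes gave one level per number (112 to 156 CPM in number 1, 44.3 to 54.4 in number 2, 0.191 to 0.488 in number 3 and 72.3 to 90.4 in number 4), and deviations from group means correlated at 0.117 to 0.362 for B with A, 0.102 to 0.255 for A with N and 0.0196 to 0.204 for B with N. This was decided before the paired fit was compared. The main fit and the test of paralogue ratios nevertheless do not use these pairs. The log2 changes, standard errors and adjusted p above come from the unpaired tests, except where the replicate number as a block is named. Alternatives were RLE, upper quartile and no factors, DESeq2 1.42.0, other filters, fits of 2 groups, the replicate block, a test against a fold change over 2, counts from mm10 and leaving libraries out; the test of paralogue ratios with 1 library left out was added after the data were examined.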

Additional observations from a re-analysis of the deposited data

Results flagged for a closer look

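Within each group of 4 libraries, the highest and lowest CPM of each member were set against the other 3, in 129 groups. In 9 of them 1 library stood far from the rest, where chance flags about 1 in 20. Of these, 3 were in N2: Vamp2 was highest there, at 55.7 CPM, against at most 35.0 CPM in the other N libraries, Rab3d was lowest, at 174.5 CPM, against at least 412.9 CPM, and Unc13b was lowest, at 28.9 CPM, against at least 54.0 CPM. N2 had the highest erythroid sum (222900 CPM) and the lowest acinar sum (65650 CPM) of the N libraries, and the part of these cells in the values was not tested. In B, Syt1 was highest in B1, at 6.90 CPM, against at most 1.65 CPM, Syt13 was lowest in B2, at 1037 CPM, against at least 1378 CPM, Nsf was highest in B3, at 163.6 CPM, against at most 138.9 CPM, and Sytl2 was highest in B4, at 39.3 CPM, against at most 21.8 CPM. B2 had the highest acinar sum of the B libraries, 28970 CPM. In A, Rab27a was lowest in A2, at 97.3 CPM, against at least 112.7 CPM, and Unc13a was highest in A4, at 30.2 CPM, against at most 12.4 CPM. A2 had the highest beta cell sum of all libraries, 19790 CPM.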

How the results depend on the processing

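In B against A, the 6 that rose were 0 in a test against a fold change over 2 (0.133% of all genes). They were 1, Syt4, without A1 and A2 together, where 0.738% of all genes were called higher. With 1 library left out at a time they were 2 to 9, where 2.496% to 6.526% of all genes were called higher. The count was 3 without B1 (2.551% of all genes), 2 without B4 (2.683%), 3 without A1 (2.496%) and 3 without A2 (2.521%). The 9 were called without N2 (6.526%). The 2 that fell were 1, Sytl4, against a fold change over 2, where 2.21% of all genes were called lower. They were also 1 without A1 and A2 together (2.74% of all genes), and 1 to 3 with 1 library left out (5.99% to 9.92% of all genes). Of A against N, the 24 that rose were 20 against a fold change over 2, where 6.11% of all genes were called higher. They were 28 without factors (47.8% of all genes), and 23 to 26 with 1 library left out (20.7% to 23.2% of all genes). The 3 that fell were 5 with RLE factors, where 23.8% of all genes were called lower, and 5 with DESeq2 (21.6% of all genes). They were 1 without factors (8.04%), 1 against a fold change over 2 (2.98%), and 2 to 4 with 1 library left out (17.3% to 22.0%). Of B against N, the 27 that rose were 21 against a fold change over 2, where 10.2% of all genes were called higher. They were 31 without factors (48.0% of all genes), and 25 to 27 with 1 library left out (27.1% to 30.0%). The 7 that fell were 7 to 8 with 1 library left out, where 27.8% to 31.5% of all genes were called lower. They were 3 without factors (19.8%) and 3 against a fold change over 2 (15.8%). Without factors, which moved the median of all genes to 0.545 in A against N and 0.514 in B against N, Snap23 turned to 0.13 in A against N and Vamp8 to 0.040 in B against N on the log2 scale. The cause of these shifts was not tested. The replicate block called Vamp8 lower in A against N and lost Cadps2 in B against N, and changed no other member's call. It gave 6 members higher and 2 lower in B against A, against 6.12% and 10.05% of all genes. Of 36 paralogue ratios 22 were called, against 26 in the mm10 table and 21 from TPM; in a test added after the data were examined they were 0 without any one B library, where 19 rather than 22 tests had the smallest p and their adjusted p was 0.0541, although the A against N ratios use no B library and were the same, and 21 to 25 without any one A or N library, so 0 to 25 in all. In an exact permutation test paired by number, 4 pairs cannot pass 0.05, and those ratios were given as values only. On mm10, 42 members were tested, without Rims1. Few counts limit Cplx1, Rims1, Rims3, Bsn, Doc2b and Syt1.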
